A study of Mus musculus with 24 samples.

Results

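The genes described here are 56 cell cycle and DNA replication genes of the mouse, taken from a fixed list of symbols and not by any measured value. For each symbol the probe set whose platform annotation names that gene alone was used, and where a gene had several, the one that was brightest on average over the 24 arrays. This gave 55 of the 56 genes among the 19938 genes tested. Ccnb1, which encodes a mitotic cyclin, has no probe set of its own in that annotation and was not analysed here. Pcna, Tk1 and Top2a each had more than 1 such probe set. Over the 24 arrays those of Tk1 averaged 9.81 and 9.52, and values are given below only for the brighter.

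The arrays measured RNA of cultured muscle cells of a MuSK-null line and of a wild-type line. MuSK is the receptor tyrosine kinase that organises the neuromuscular synapse. Both lines were described as H-2Kb-tsA58 cells, in which an interferon-inducible promoter drives a temperature-sensitive large T antigen. The cells were studied as myoblasts at 33 °C with interferon-γ in the medium, or as myotubes after 3 days at 37 °C in differentiation medium. They were treated with 25 ng/ml bone morphogenetic protein 4 (BMP4) for 8 h or left untreated. The 8 groups, with 3 arrays each, were MuSK-null myotubes with BMP4, untreated MuSK-null myotubes, wild-type myotubes with BMP4, untreated wild-type myotubes, MuSK-null myoblasts with BMP4, untreated MuSK-null myoblasts, wild-type myoblasts with BMP4 and untreated wild-type myoblasts. Treated myoblasts had been deprived of serum for 4 h before BMP4, treated myotubes had not, and for untreated myoblasts no such step is described. In myoblasts, serum deprivation and BMP4 therefore cannot be told apart. Each genotype was 1 line, so genotype and line cannot be told apart either. The arrays of a group were called biological replicates, but nothing says that they came from separate passages. The p-values therefore rest on array-to-array spread, part of which may be technical.

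Cell division runs in phases. D-type cyclins with the kinases Cdk4 and Cdk6 start to inactivate the retinoblastoma proteins, cyclin E with Cdk2 completes this, and E2f factors then switch on the genes that license and copy DNA. Later in the cycle cyclins A and B with Cdk1 drive entry into mitosis, and the factors Foxm1 and Mybl2 are known activators of the genes of the spindle and its checkpoint. Muscle precursors leave the cell cycle as they differentiate into myotubes. Large T antigen binds the retinoblastoma proteins and keeps such precursors dividing at the permissive temperature.

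All values are log2 signals, and differences are in log2 units with their standard error (SE). They come from a limma model of all 24 arrays, in which a gene was called at a Benjamini-Hochberg adjusted p under 0.05 over the 19938 genes. Array medians lay between 7.38 and 7.50. In bulk samples fewer cells of a type and less RNA per cell cannot be told apart. Musk itself, measured by probe set 10505145, averaged 11.22 ± 0.04 (SD, n = 3) in untreated MuSK-null myotubes and 12.72 ± 0.04 in untreated wild-type myotubes. In untreated myoblasts Musk averaged 10.85 ± 0.14 (SD, n = 3) in MuSK-null cells and 11.57 ± 0.07 in wild-type cells. It was thus lower in the MuSK-null line at both stages but not absent, and the deleted exons are not stated, so this checks the labels only in part.

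The muscle character of the lines differed and is given here because it runs alongside the results. The summed level of 12 myoblast and muscle markers was 14.65 to 14.75 in untreated MuSK-null myoblasts, against 16.23 to 16.26 in untreated wild-type myoblasts. In untreated myotubes it was 16.90 to 16.92 in MuSK-null cells, against 17.11 to 17.14 in wild-type cells. Of these 12 markers, 10 were lower and 1 was higher in MuSK-null myoblasts, where 16% of all genes were called lower and 15.3% higher. In MuSK-null myotubes 7 were lower and 1 was higher, where 18% of all genes were called lower and 19.4% higher. The summed level of 11 fibroblast markers was 14.53 to 14.72 in untreated MuSK-null myoblasts, against 13.76 to 13.87 in untreated wild-type myoblasts, with 6 markers called higher and 3 lower and a mean of Lum below 6 in both. In untreated myotubes it was 14.56 to 14.63 in MuSK-null cells, against 13.64 to 13.71 in wild-type cells, with 7 called higher and 3 lower. There Lum, a collagen-binding proteoglycan, averaged 8.23 in MuSK-null and 4.64 in wild-type myotubes, and Dcn, another, averaged 11.95 in MuSK-null and 9.28 in wild-type myotubes. The 3 that were lower averaged, in MuSK-null against wild-type myotubes, 7.07 against 8.19 (Thy1), 11.22 against 11.97 (Pdpn) and 7.71 against 8.19 (Fap). For 8 smooth muscle markers the summed level was 14.48 to 14.55 in untreated MuSK-null myoblasts, against 14.97 to 15.12 in untreated wild-type myoblasts. These 8 include Des, which is also among the 12 muscle markers, and without Des it was 14.33 to 14.38 in MuSK-null and 14.53 to 14.61 in wild-type myoblasts. For 6 endothelial and blood markers the summed level stayed between 8.97 and 9.44 on all arrays, with the means of Kdr and Ptprc below 6 in every group. The part of these differences in the results that follow was not tested. A set of 4 myoblast arrays stood apart, namely replicate 2 of MuSK-null myoblasts with BMP4, of untreated MuSK-null myoblasts and of untreated wild-type myoblasts, and replicate 3 of wild-type myoblasts with BMP4. Their deviations from their group means correlated at 0.42 to 0.54 across genes, which are not independent replicates, and the listed genes deviated there by a median of 0.01 to 0.04. Without the set, 29 genes were called between the lines in untreated myoblasts and 29 in treated myoblasts, against 32 and 32 with it.

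**Figure D1:**
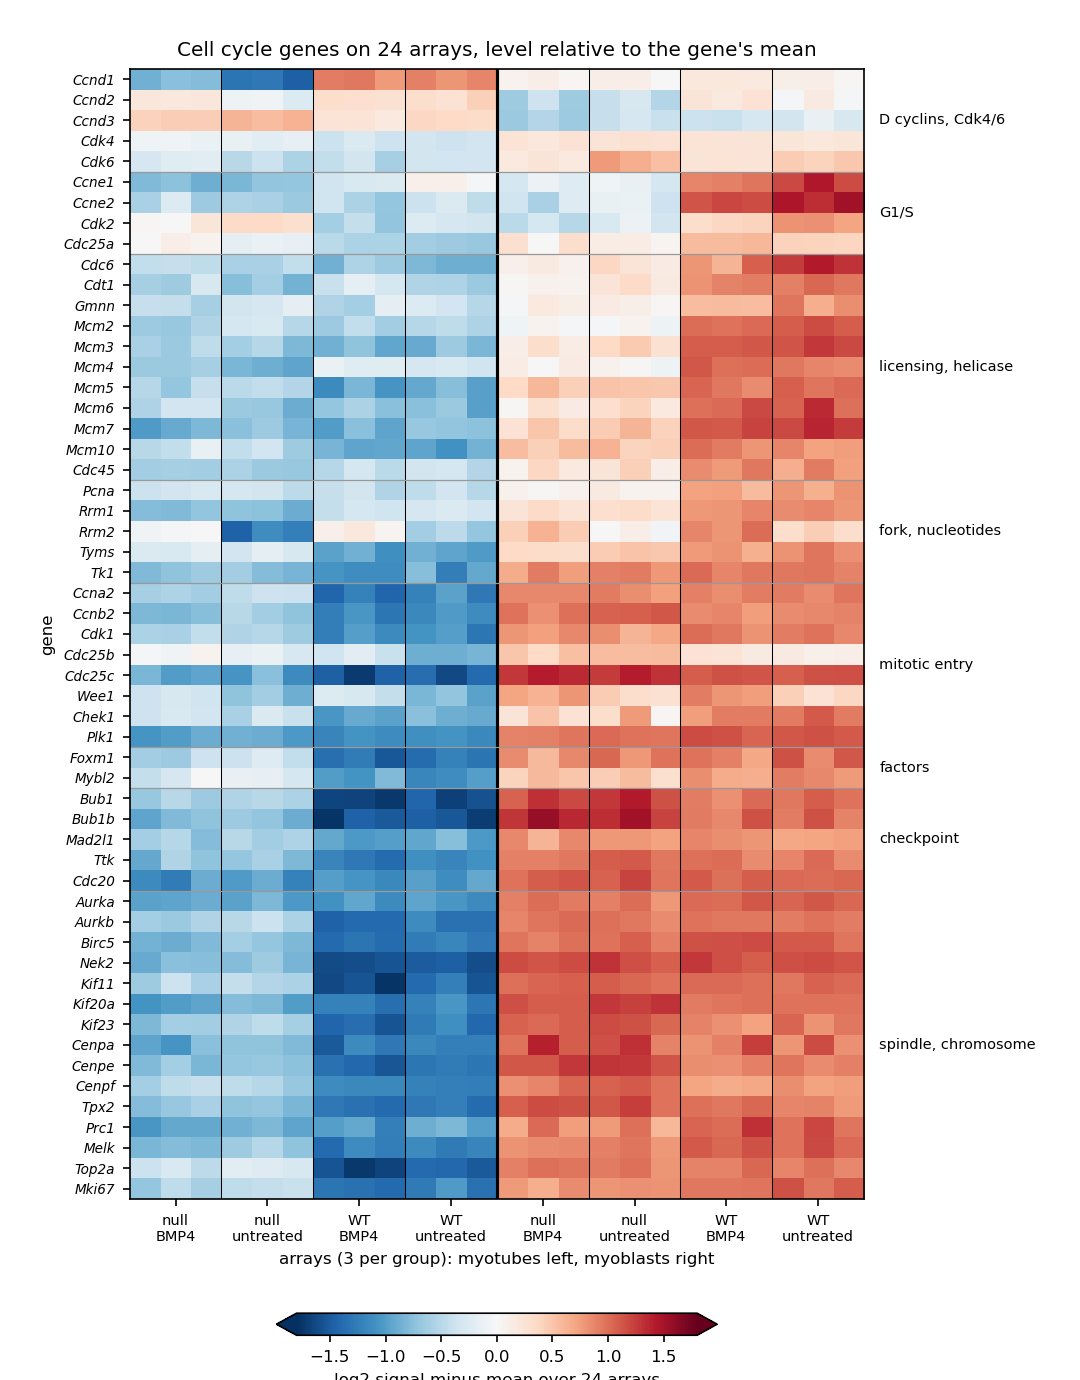
Log2 signal of each of 55 genes minus the gene's mean over 24 arrays, in colour (blue lower, red higher), with genes as rows by role and arrays as columns. Most rows are blue in the 12 myotube arrays and red in the 12 myoblast arrays, while Ccnd1, Ccnd2 and Ccnd3 run differently.

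The first comparison sets untreated myotubes against untreated myoblasts. Temperature, interferon-γ and medium changed together with stage, so these cannot be told apart. The part of the large T antigen, which depends on temperature and interferon, was not tested. Of the 55 genes, 52 were lower and 3 were higher in untreated MuSK-null myotubes than in untreated MuSK-null myoblasts, with a median change of -1.24. Over all genes, 23.4% were called lower and 18.2% higher in that comparison, or 41.6% in all. In the wild-type line 52 genes were lower and 3 were higher in untreated myotubes, with a median change of -1.95, against 24.7% lower and 20.3% higher over all genes, or 45% in all. The median over all genes lay within 0.05 of 0 in both comparisons. In both lines 51 genes fell, as did 15.1% of all genes. Ccnd2 and Ccnd3 rose in both, and Ccnd1 and Cdk2 went opposite ways.

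The largest falls were those of mitosis genes. Nek2, a centrosome kinase (probe set 10352767), had 8.55, 8.70 and 8.50 in untreated MuSK-null myotubes, against 10.64, 10.50 and 10.42 in untreated MuSK-null myoblasts. In the wild-type line Nek2 had 7.83, 7.87 and 7.73 in untreated myotubes, against 10.50, 10.51 and 10.47 in untreated myoblasts. Both sets of arrays lay far apart: Nek2 changed by -1.94 (SE 0.07, adjusted p = 1.29e-16) in MuSK-null cells and by -2.68 (SE 0.07, adjusted p = 9.33e-19) in wild-type cells. Cdc25c, a phosphatase that activates Cdk1 (10458195), had 7.17, 7.47 and 7.08 in untreated MuSK-null myotubes, against 9.48, 9.64 and 9.53 in untreated MuSK-null myoblasts. It had 6.85, 6.61 and 6.83 in untreated wild-type myotubes, against 9.30, 9.38 and 9.38 in untreated wild-type myoblasts. Cdc25c changed by -2.31 (SE 0.09, adjusted p = 1.03e-15) in MuSK-null and by -2.59 (SE 0.09, adjusted p = 1.73e-16) in wild-type cells, again with no overlap between stages. Cdc20, the activator of the anaphase-promoting complex, changed by -2.12 (SE 0.09) in MuSK-null and by -2.03 (SE 0.09) in wild-type cells, a difference of -0.09 that was not called (SE 0.13, adjusted p = 0.663). Kif20a, a cytokinesis motor, changed by -2.13 in MuSK-null cells, and Bub1 by -2.56 in wild-type cells. All 28 mitosis genes measured fell in both lines, with medians of -1.67 in MuSK-null and -2.15 in wild-type cells.

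Replication genes fell as a whole as well. The 11 licensing and helicase genes, which load and start the replicative helicase, all fell in both lines, with medians of -0.96 in MuSK-null and -1.75 in wild-type cells. Cdc6, which loads the helicase onto origins (10381072), had 7.54, 7.53 and 7.68 in untreated MuSK-null myotubes, against 8.49, 8.35 and 8.27 in untreated MuSK-null myoblasts. In wild-type cells Cdc6 had 7.32, 7.24 and 7.24 in untreated myotubes, against 9.37, 9.54 and 9.42 in untreated myoblasts. The lines lay closer to each other as myotubes than as myoblasts. Cdc6 changed by -0.78 (SE 0.09, adjusted p = 2.11e-07) in MuSK-null cells and by -2.18 (SE 0.09, adjusted p = 4.58e-15) in wild-type cells. Mcm7, a subunit of that helicase (10534974), had 9.93, 10.03 and 9.86 in untreated MuSK-null myotubes, against 11.14, 11.30 and 11.11 in untreated MuSK-null myoblasts. It had 10.00, 9.98 and 9.95 in untreated wild-type myotubes, against 11.88, 12.05 and 11.94 in untreated wild-type myoblasts. The myotube levels overlapped between the lines, and the changes were -1.24 (SE 0.08) in MuSK-null and -1.98 (SE 0.08) in wild-type cells. Tk1, the thymidine kinase of the salvage pathway, changed by -1.62 (SE 0.09) in MuSK-null and -1.91 (SE 0.09) in wild-type cells, a difference that was not called (adjusted p = 0.0983).

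Within roles the range was wide. Changes of the 15 spindle, kinetochore, cytokinesis and chromosome genes ran from -2.13 to -1.15 in MuSK-null and from -2.68 to -1.94 in wild-type cells. Those of the 5 fork and nucleotide genes ran from -1.62 to -0.47 in MuSK-null and from -1.91 to -0.96 in wild-type cells. For the 8 mitotic entry genes they ran from -2.31 to -0.74 in MuSK-null and from -2.59 to -0.98 in wild-type cells.

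Among the D-type cyclins, Ccnd2 and Ccnd3 ran against the rest in both lines, and Ccnd1 in wild-type cells. Ccnd3 (10445688) had 12.73, 12.68 and 12.75 in untreated MuSK-null myotubes, against 11.70, 11.82 and 11.72 in untreated MuSK-null myoblasts. It had 12.49, 12.49 and 12.46 in untreated wild-type myotubes, against 11.79, 11.98 and 11.83 in untreated wild-type myoblasts. Myotube arrays were above myoblast arrays in both lines, with rises of 0.98 (SE 0.06, adjusted p = 2.82e-12) in MuSK-null and 0.61 (SE 0.06, adjusted p = 8.52e-09) in wild-type cells. Ccnd2 (10548105) had 11.45, 11.48 and 11.30 in untreated MuSK-null myotubes, against 11.12, 11.25 and 11.02 in untreated MuSK-null myoblasts. It had 11.85, 11.80 and 11.97 in untreated wild-type myotubes, against 11.52, 11.70 and 11.50 in untreated wild-type myoblasts. Ccnd2 thus rose by 0.28 (SE 0.08, adjusted p = 0.0057) in MuSK-null and by 0.30 (SE 0.08, adjusted p = 0.00305) in wild-type cells.

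Ccnd1 (10569646) had 10.03, 10.05 and 9.88 in untreated MuSK-null myotubes, against 11.46, 11.46 and 11.34 in untreated MuSK-null myoblasts. In the wild-type line it had 12.24, 12.14 and 12.22 in untreated myotubes, against 11.45, 11.46 and 11.37 in untreated myoblasts. The myoblast levels of the 2 lines overlapped and the myotube levels lay on opposite sides of them. Ccnd1 changed by -1.44 (SE 0.06, adjusted p = 7.2e-15) in MuSK-null and by 0.78 (SE 0.06, adjusted p = 4.08e-10) in wild-type cells. The difference between these changes was -2.21 (SE 0.09, adjusted p = 9.61e-15), the largest in size among the 55 genes.

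Cdk2, the kinase partner of cyclin E (10373530), was the converse. It had 11.37, 11.39 and 11.31 in untreated MuSK-null myotubes, against 10.76, 10.93 and 10.70 in untreated MuSK-null myoblasts. It had 10.79, 10.72 and 10.70 in untreated wild-type myotubes, against 11.84, 11.85 and 11.74 in untreated wild-type myoblasts. Cdk2 rose by 0.56 (SE 0.08, adjusted p = 1.86e-06) in MuSK-null cells and changed by -1.07 (SE 0.08, adjusted p = 5.35e-11) in wild-type cells. The difference between the lines was 1.64 (SE 0.11, adjusted p = 5.42e-11).

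**Figure D2:**
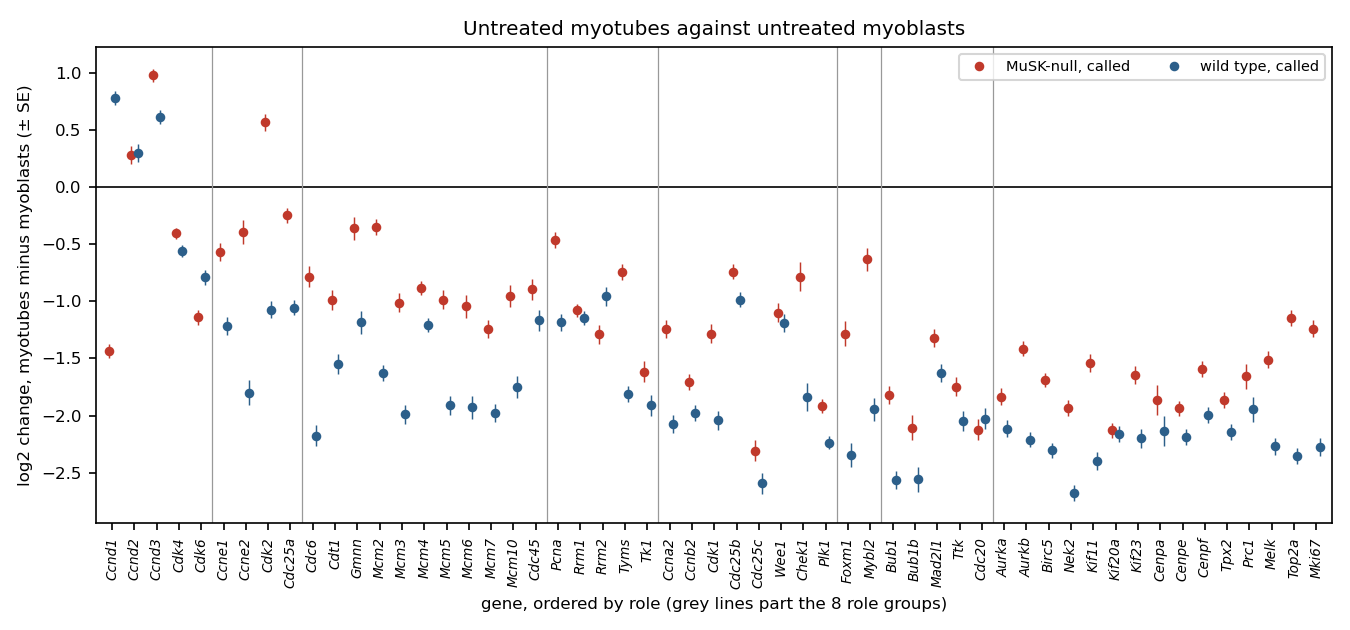
Log2 change (± SE) of each of 55 genes, untreated myotubes minus untreated myoblasts, in MuSK-null cells (red) and wild-type cells (blue), all called. Most red points lie above the blue point of the same gene, with Ccnd1 at -1.44 against 0.78 as the clearest exception.

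The change itself was compared between the lines with an interaction term. It was higher in MuSK-null cells for 38 of the 55 genes and lower for 3, where 14.9% of all genes were called higher and 14.1% lower (29.1% in all). Of the 51 genes that fell in both lines, 36 fell less in MuSK-null cells. These 36 are 65.5% of the listed genes, where 3.7% of all genes had that pattern. Over all genes, 3019 fell in both lines, and 738 of them fell less in MuSK-null cells. Cdk6 and Rrm2 fell more, and 13 showed no called difference. The median of the differences was 0.56. All 4 genes of the G1/S group were among the 38, as were 10 of 11 licensing and helicase genes, 2 of 5 fork and nucleotide genes, both transcription factors and 19 of 28 mitosis genes. Calls for Ccnb2, Bub1b, Mad2l1, Aurka, Tpx2 and Rrm2 were lost without any 1 of 6 to 10 of the 12 arrays. A smaller fall need not mean a higher level in MuSK-null myotubes, since the levels in myoblasts enter it as well. All licensing and helicase genes measured were lower in untreated MuSK-null than in untreated wild-type myoblasts. Ccne1 and Mcm4 are among the 36, although both were lower in untreated MuSK-null than in untreated wild-type myotubes. As the muscle markers above show, the MuSK-null myoblasts also started from a lower muscle marker level, and its part was not tested.

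The next comparison sets the 2 lines side by side as untreated myoblasts. G1/S and replication genes were lower in MuSK-null myoblasts almost throughout, while mitosis genes differed little. Of the 55 genes 23 were lower and 9 were higher, where 16% of all genes were called lower and 15.3% higher (31.3% in all). The median difference was -0.14 over the listed genes. By role, 4 of 4 G1/S genes were lower (median -1.23), 11 of 11 licensing and helicase genes were lower (median -0.77) and 4 of 5 fork and nucleotide genes were lower (median -0.39). Of the 28 mitosis genes 8 were higher and 2 were lower, with a median of 0.04.

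The E-type cyclins, which activate Cdk2 at the start of DNA synthesis, differed most. Ccne2 (10503264) had 8.61, 8.62 and 8.36 in untreated MuSK-null myoblasts, against 10.19, 10.07 and 10.24 in untreated wild-type myoblasts. Ccne1 (10562563) had 10.25, 10.20 and 10.02 in untreated MuSK-null myoblasts, against 11.52, 11.78 and 11.50 in untreated wild-type myoblasts. No array of one line reached the other, and the differences were -1.64 (SE 0.11, adjusted p = 1.67e-11) for Ccne2 and -1.44 (SE 0.08, adjusted p = 6.28e-13) for Ccne1. Mcm2, another helicase subunit (10546163), had 10.92, 11.02 and 10.86 in untreated MuSK-null myoblasts, against 12.04, 12.13 and 12.05 in untreated wild-type myoblasts. Mcm2 differed by -1.14 (SE 0.07, adjusted p = 7.02e-12), Cdc6 by -1.07 (SE 0.09, adjusted p = 2.53e-09) and Cdk2 by -1.02 (SE 0.08, adjusted p = 2.93e-10). Pcna, the sliding clamp of the polymerases, had a difference of -0.65 and Tyms, thymidylate synthase, one of -0.39. Tk1, read on its brighter probe set, was the fork and nucleotide gene that was not called, at -0.07 (SE 0.09, adjusted p = 0.686).

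Among the genes that were higher in MuSK-null myoblasts, Cdc25b differed most. This phosphatase activates Cdk1 at mitotic entry (10476252) and had 10.91, 10.91 and 10.92 in untreated MuSK-null myoblasts, against 10.52, 10.44 and 10.47 in untreated wild-type myoblasts. The difference was 0.44 (SE 0.07, adjusted p = 1.13e-05). Bub1b, a spindle checkpoint kinase (10474769), had 10.98, 11.17 and 10.86 in untreated MuSK-null myoblasts, against 10.58, 10.80 and 10.54 in untreated wild-type myoblasts, and differed by 0.36 (SE 0.11, adjusted p = 0.0115). Cenpe, a kinetochore motor, differed by 0.33 (SE 0.07, adjusted p = 0.000562). Top2a, the topoisomerase that untangles chromosomes, was not called in myoblasts (adjusted p = 0.977), and neither was Ccnd1 (-0.01, SE 0.06, adjusted p = 0.964). The calls of Cdk6, Mcm10, Ccnb2, Bub1, Bub1b and Mki67 were each lost without at least 1 of the 6 arrays. For Bub1 that array was MuSK-null replicate 2, which took the adjusted p to 0.0831, and for Mki67 it was wild-type replicate 1, which took it to 0.0636. Bub1b was lost without MuSK-null replicate 2 or wild-type replicate 3, with an adjusted p of up to 0.0798.

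In BMP4-treated myoblasts the picture was close: 26 genes were lower and 6 were higher in MuSK-null cells, where 15.6% and 14.1% of all genes were (29.7% in all). These arrays are separate from the untreated ones, and 26 of the 55 genes had the same call in both, as did 23.4% of all genes. Ccne2 differed by -1.56 (SE 0.11, adjusted p = 3.96e-11), Ccne1 by -1.14 (SE 0.08, adjusted p = 5.09e-11) and Mcm2 by -1.01 (SE 0.07, adjusted p = 5.7e-11). All 11 licensing and helicase genes were again lower, with a median of -0.79.

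**Figure D3:**
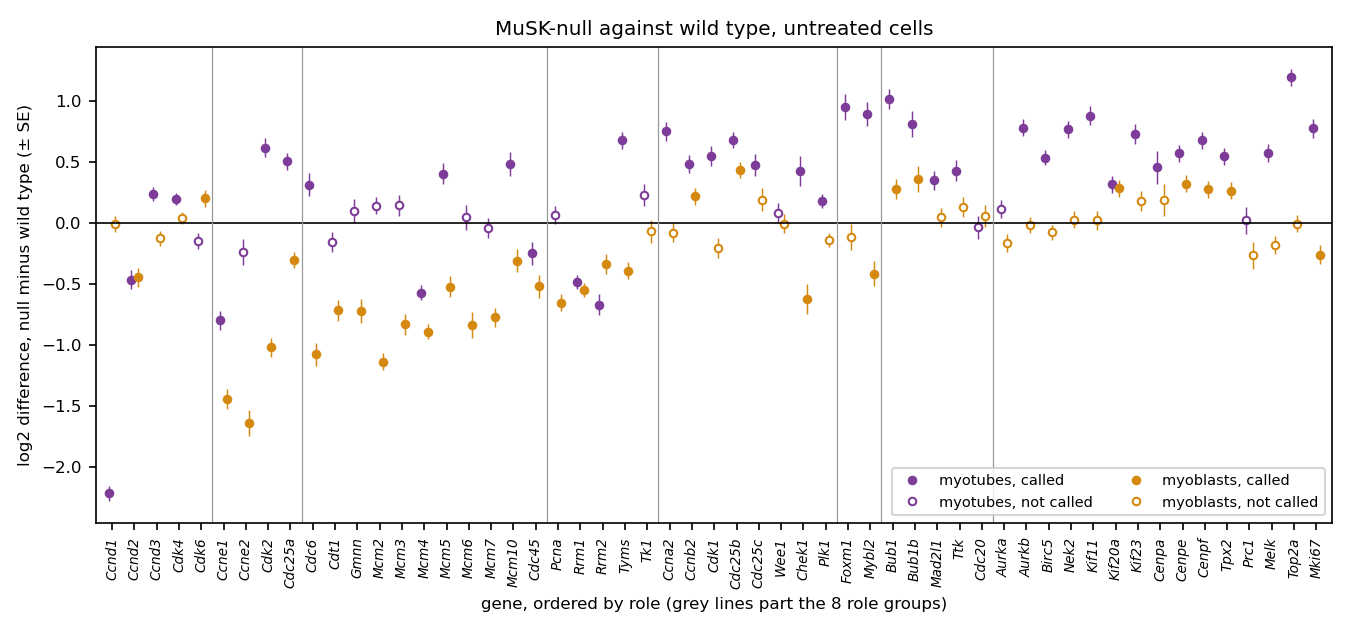
Log2 difference (± SE) of each of 55 genes, MuSK-null minus wild type, in untreated myotubes (purple) and untreated myoblasts (orange). Filled points were called, and open points were not. Orange points lie below 0 for G1/S and replication genes, and purple points lie above 0 for most mitosis genes, with Ccnd1 at -2.22 in myotubes.

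In untreated myotubes most mitosis genes were higher in MuSK-null cells, and Ccnd1 had the largest difference, in the other direction. Of the 55 genes 34 were higher and 7 were lower in MuSK-null myotubes, where 19.4% of all genes were called higher and 18% lower (37.4% in all). The median difference was 0.41. Among the 28 mitosis genes 24 were higher and 0 were lower, with a median of 0.55, and the 4 not called were Wee1, Cdc20, Aurka and Prc1. Foxm1 and Mybl2 were both higher. Of the 5 D-type cyclins and kinases 2 were higher and 2 were lower, of the 4 G1/S genes 2 were higher and 1 was lower, and of the 5 fork and nucleotide genes 1 was higher and 2 were lower. Of the 11 licensing and helicase genes 3 were higher and 2 were lower, with a median of 0.10.

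Top2a (10390707) had 10.20, 10.18 and 10.13 in untreated MuSK-null myotubes, against 9.00, 9.00 and 8.90 in untreated wild-type myotubes. It was 2.30-fold higher, a difference of 1.20 (SE 0.07, adjusted p = 2.13e-12). A second Top2a probe set averaged 4.39 over the 24 arrays, near the low end of the scale, and showed no called difference (-0.05, adjusted p = 0.870). Bub1, the partner kinase of Bub1b (10487480), had 9.58, 9.63 and 9.55 in untreated MuSK-null myotubes, against 8.69, 8.44 and 8.56 in untreated wild-type myotubes. Bub1 differed by 1.02 (SE 0.08, adjusted p = 5.53e-10). Kif11, the motor that pushes spindle poles apart (10462796), had 10.31, 10.22 and 10.17 in untreated MuSK-null myotubes, against 9.35, 9.51 and 9.18 in untreated wild-type myotubes, and differed by 0.88 (SE 0.08, adjusted p = 3.35e-09). Foxm1 (10542079) had 9.65, 9.80 and 9.58 in untreated MuSK-null myotubes, against 8.65, 8.81 and 8.71 in untreated wild-type myotubes. Mybl2 (10478355) had 9.05, 9.02 and 8.86 in untreated MuSK-null myotubes, against 8.00, 8.06 and 8.18 in untreated wild-type myotubes. For none of these 5 genes did the arrays of the 2 lines overlap, and Foxm1 and Mybl2 differed by 0.95 (SE 0.11, adjusted p = 1.38e-07) and 0.90 (SE 0.10, adjusted p = 1.29e-07). Mki67, whose product coats mitotic chromosomes and is the common marker of dividing cells, differed by 0.78 (SE 0.08, adjusted p = 1.81e-08).

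Those lower in MuSK-null myotubes were Ccnd1, Ccnd2, Ccne1, Mcm4, Cdc45, Rrm1 and Rrm2. The Ccnd1 arrays given above differed by -2.22 (SE 0.06, adjusted p = 6.61e-18), a level 4.65-fold lower in MuSK-null myotubes. Ccne1 had 9.51, 9.63 and 9.64 in untreated MuSK-null myotubes, against 10.42, 10.43 and 10.31 in untreated wild-type myotubes, and differed by -0.79 (SE 0.08, adjusted p = 1.81e-08). Rrm2, the regulated subunit of ribonucleotide reductase (10394978), had 10.62, 10.96 and 10.84 in untreated MuSK-null myotubes, against 11.45, 11.60 and 11.37 in untreated wild-type myotubes. Rrm2 differed by -0.67 (SE 0.08, adjusted p = 7.98e-07) and Mcm4 by -0.57 (SE 0.06, adjusted p = 7.06e-08). Ccnd2 differed by -0.46 (SE 0.08, adjusted p = 4.65e-05). The call of Cdc45 (adjusted p = 0.0378) was lost without any 1 of 4 of the 6 arrays, and that of Plk1, higher in MuSK-null myotubes, without any 1 of 3. Cdc6 was lost without MuSK-null replicate 3 (adjusted p = 0.0506) and Chek1 without MuSK-null replicate 2 (adjusted p = 0.0524).

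Across both stages, 9 genes were lower in untreated MuSK-null myoblasts and higher in untreated MuSK-null myotubes, namely Cdk2, Cdc25a, Cdc6, Mcm5, Mcm10, Tyms, Chek1, Mybl2 and Mki67. These are 16.4% of the listed genes, where 2.35% of all genes had that pattern. Another 6 were lower at both stages (7.44% of all genes) and 8 were higher at both (7.06% of all genes). In BMP4-treated myotubes 36 genes were higher and 5 were lower in MuSK-null cells, where 17.5% and 18.8% of all genes were (36.3% in all). The call was the same in treated and untreated myotubes for 37 listed genes and for 27.8% of all genes. With BMP4, Top2a differed by 1.28 (SE 0.07, adjusted p = 7.02e-13), Kif11 by 1.11 (SE 0.08, adjusted p = 7.64e-11) and Ccnd1 by -1.67 (SE 0.06, adjusted p = 1.04e-15).

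**Figure D4:**
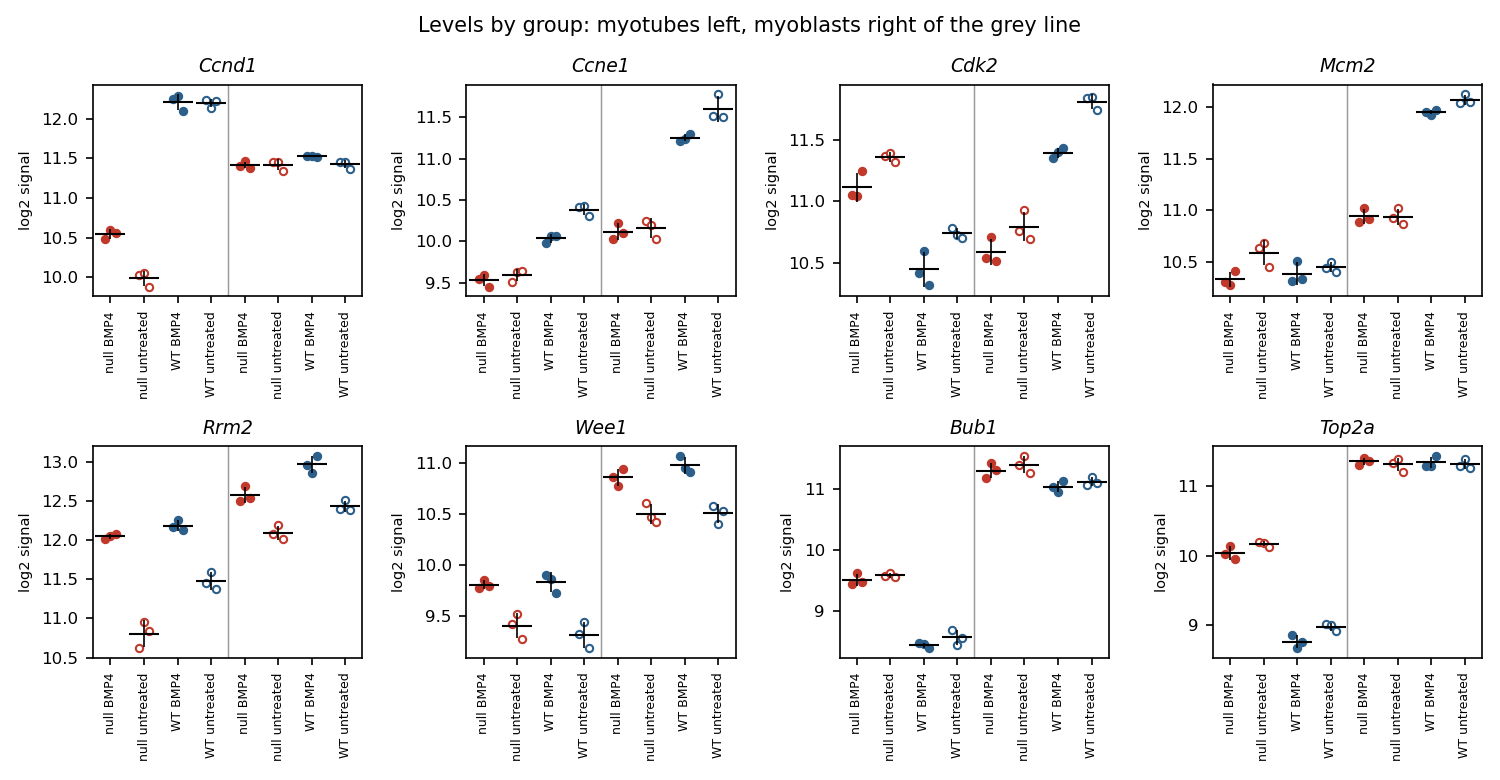
Log2 signal on each array for 8 genes in the 8 groups, MuSK-null in red and wild type in blue, filled with BMP4 and open untreated, myotubes left and myoblasts right. Bars are the mean ± SD of 3 arrays. Ccnd1 separates the myotubes of the lines, Mcm2 the myoblasts and Ccne1 both. Bub1 and Top2a differ between the lines more in myotubes than in myoblasts, and Rrm2 and Wee1 are higher with BMP4 in each pair.

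BMP4 calls among the 55 listed genes numbered 4 to 9 in each pair of groups, and are given beside the share of all genes called. In MuSK-null myotubes 7 were higher and 2 were lower with BMP4, where 5.36% of all genes were called higher and 5.9% lower (11.3% in all). In wild-type myotubes 4 were higher and 3 were lower (4.4% and 4.37% of all genes, 8.77% in all). In MuSK-null myoblasts 2 were higher and 2 were lower (3.89% and 4.52%, 8.42% in all), and in wild-type myoblasts 2 were higher and 4 were lower (5.21% and 5.76%, 11% in all). The share of listed genes called was 16.4% in MuSK-null myotubes, 12.7% in wild-type myotubes, 7.27% in MuSK-null myoblasts and 10.9% in wild-type myoblasts. In myoblasts it was near that of all genes, and in the myotubes of both lines it was above it. The counts behind this are small: 9 genes in MuSK-null and 7 in wild-type myotubes. With any 1 array left out they were 4 to 8 and 4 to 7. Of the 55 genes 40, or 72.7%, were called in none of the 4 comparisons, against 78.6% of all genes. These 40 include all 5 spindle checkpoint genes and both transcription factors. The other 15 were called in at least 1 comparison. Only Rrm2 and Wee1 were called in the same direction in all 4, which share no arrays. Over all genes 1.06% rose in all 4.

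Rrm2 had 12.02, 12.05 and 12.08 in MuSK-null myotubes with BMP4, against 10.62, 10.96 and 10.84 in untreated MuSK-null myotubes. In wild-type myotubes it had 12.17, 12.26 and 12.13 with BMP4, against 11.45, 11.60 and 11.37 untreated. With BMP4, the myotubes of the lines were not called different for Rrm2 (MuSK-null minus wild type -0.14, SE 0.08, adjusted p = 0.239). Among MuSK-null myoblasts Rrm2 had 12.50, 12.70 and 12.54 with BMP4, against 12.07, 12.19 and 12.02 untreated. Among wild-type myoblasts it had 12.96, 12.86 and 13.08 with BMP4, against 12.39, 12.51 and 12.39 untreated. Treated and untreated arrays did not overlap in any pair. Rrm2 rose by 1.24 (SE 0.08, adjusted p = 3.15e-10) in MuSK-null myotubes, a 2.37-fold rise. It rose by 0.71 (SE 0.08, adjusted p = 2.51e-06) in wild-type myotubes, by 0.48 (adjusted p = 0.000301, SE 0.08) in MuSK-null myoblasts and by 0.54 (adjusted p = 6.15e-05, SE 0.08) in wild-type myoblasts.

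Wee1, the kinase that restrains Cdk1 (10556266), had 9.77, 9.85 and 9.79 in MuSK-null myotubes with BMP4, against 9.42, 9.52 and 9.27 in untreated MuSK-null myotubes. In wild-type myotubes it had 9.90, 9.86 and 9.72 with BMP4, against 9.32, 9.44 and 9.18 untreated. MuSK-null myoblasts gave 10.86, 10.78 and 10.94 with BMP4, against 10.61, 10.47 and 10.42 untreated. Wild-type myoblasts gave 11.07, 10.95 and 10.91 with BMP4, against 10.58, 10.40 and 10.52 untreated. Every treated array lay above every untreated one of its pair. The rises were 0.40 (SE 0.08, adjusted p = 0.00109) in MuSK-null myotubes and 0.51 (SE 0.08, adjusted p = 0.000102) in wild-type myotubes. They were 0.36 (SE 0.08, adjusted p = 0.00449) in MuSK-null myoblasts and 0.47 (SE 0.08, adjusted p = 0.000181) in wild-type myoblasts.

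**Figure D5:**
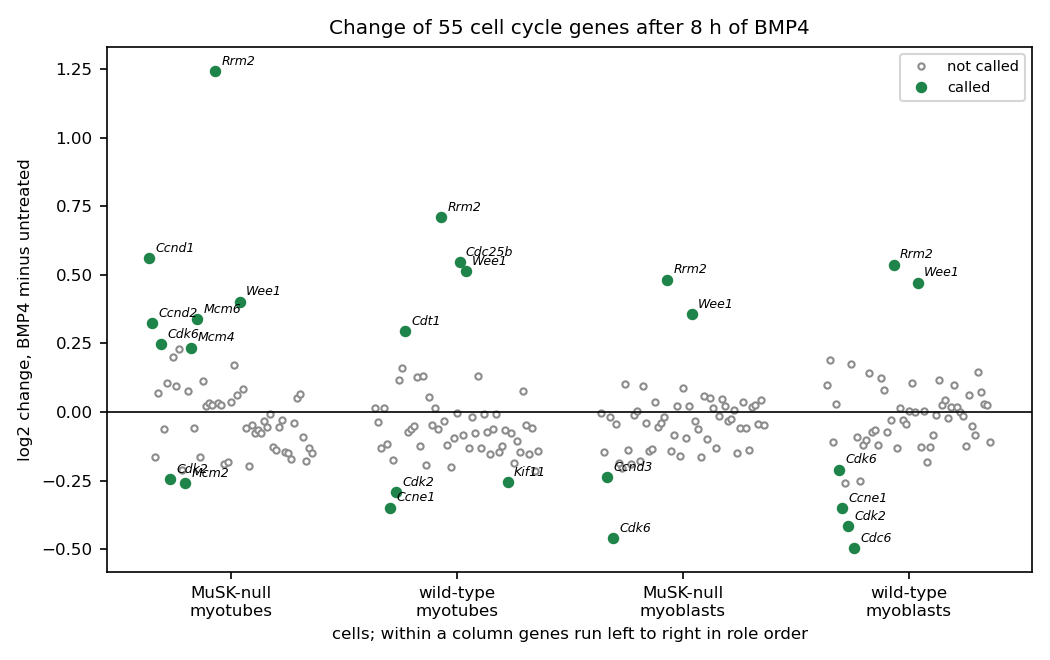
Log2 change with BMP4 of 55 genes in 4 pairs of groups, with genes in role order within each column. Filled green points were called and are named, and open grey points were not. Rrm2 is the highest point in all 4 columns, at 1.24 in MuSK-null myotubes, and 40 genes have no filled point in any column.

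Several other BMP4 calls were of G1/S genes and their kinases. Ccne1 had 9.98, 10.07 and 10.07 in wild-type myotubes with BMP4, against 10.42, 10.43 and 10.31 in untreated wild-type myotubes, a change of -0.35 (SE 0.08, adjusted p = 0.00439). In wild-type myoblasts it had 11.22, 11.24 and 11.30 with BMP4, against 11.52, 11.78 and 11.50 untreated, also -0.35 (SE 0.08, adjusted p = 0.00321). In MuSK-null cells Ccne1 changed by -0.06 in myotubes and -0.04 in myoblasts, neither of them called. The difference of these responses between the lines was 0.29 (SE 0.11, adjusted p = 0.211) in myotubes and 0.31 (SE 0.11, adjusted p = 0.227) in myoblasts, so it was not called. The wild-type myoblast change was -0.42 (SE 0.08, adjusted p = 0.000487) for Cdk2 and -0.49 (SE 0.09, adjusted p = 0.00054) for Cdc6. Cdk6 had 10.72, 10.77 and 10.71 in MuSK-null myoblasts with BMP4, against 11.30, 11.19 and 11.09 in untreated MuSK-null myoblasts. Its arrays did not overlap and the change was -0.46 (SE 0.07, adjusted p = 3.63e-05).

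Ccnd1 had 10.48, 10.60 and 10.56 in MuSK-null myotubes with BMP4, against 10.03, 10.05 and 9.88 in untreated MuSK-null myotubes. In wild-type myotubes it had 12.26, 12.29 and 12.10 with BMP4, against 12.24, 12.14 and 12.22 untreated. The MuSK-null arrays separated and the wild-type arrays overlapped, with changes of 0.56 (SE 0.06, adjusted p = 7.79e-07) in MuSK-null and 0.01 (SE 0.06, adjusted p = 0.945) in wild-type myotubes. With BMP4 Ccnd1 still differed between the lines by the -1.67 given above. Cdc25b had 10.00, 10.16 and 9.96 in wild-type myotubes with BMP4, against 9.48, 9.48 and 9.52 in untreated wild-type myotubes, a rise of 0.55 (SE 0.07, adjusted p = 3.23e-06). In MuSK-null myotubes its change was 0.17 (SE 0.07, adjusted p = 0.109).

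Several BMP4 calls were lost when 1 array was left out. The wild-type myoblast call of Cdk6 (adjusted p = 0.0482) was lost without any 1 of the 6 arrays, and that of Ccnd3 in MuSK-null myoblasts (adjusted p = 0.0111) without any 1 of 3. In wild-type myotubes Cdt1, Kif11 and Cdk2 (adjusted p of 0.0275, 0.0446 and 0.0174) were lost without any 1 of 5, 4 and 3 arrays. In MuSK-null myotubes Cdk2, Mcm2, Cdk6, Mcm6 and Mcm4 were lost without any 1 of 5, 4, 4, 3 and 2 arrays, and Ccnd2 without untreated replicate 3 (adjusted p = 0.0544). The calls of Rrm2, Wee1, Ccne1, Cdc6, Cdc25b and Ccnd1 named above held without any 1 array, as did those of Cdk2 in wild-type and Cdk6 in MuSK-null myoblasts.

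The design also asks whether the lines responded differently to BMP4. In myotubes 4 of 55 genes were called for that difference, 3 higher in MuSK-null cells (1.5% of all genes) and 1 lower (1.71%, with 3.21% called in either direction). Ccnd1 differed by 0.55 (SE 0.09, adjusted p = 0.000649), Rrm2 by 0.53 (SE 0.12, adjusted p = 0.0111), Cdk6 by 0.36 (SE 0.10, adjusted p = 0.0348) and Cdc25b by -0.37 (SE 0.09, adjusted p = 0.024). The call of Cdk6 was lost without any 1 of 9 of the 12 arrays and that of Cdc25b without any 1 of 7. In myoblasts limma called 0 of the 55 genes, where 1.17% of all genes were called higher and 1.22% lower, 2.39% in all, and 5 had an unadjusted p under 0.05. Without the set of 4 arrays, or with it as a block, 1 gene was called, Ccnd2, whose response was then lower in the MuSK-null line. Without MuSK-null replicate 2 with BMP4 Ccnd2 was called, and without wild-type replicate 3 with BMP4 Cdc6 was called.

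The response also differed between stages for a few genes. In MuSK-null cells 5 of 55 were called, all higher in myotubes (3.24% of all genes were higher, 2.92% lower and 6.16% either), among them Rrm2 at 0.76 (SE 0.12, adjusted p = 0.000148), Cdk6 at 0.71 (SE 0.10, adjusted p = 2.56e-05) and Ccnd1 at 0.56 (SE 0.09, adjusted p = 0.000174). In wild-type cells 2 were called, both higher in myotubes (1.92% of all genes were higher, 1.5% lower and 3.42% either), namely Cdc6 at 0.66 (SE 0.13, adjusted p = 0.00408) and Cdc25b at 0.44 (SE 0.09, adjusted p = 0.00583). Serum deprivation, given for treated myoblasts and not for treated myotubes, cannot be told apart from stage here.

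Other genes of the same pathways, from lists chosen with earlier results of these data known, are given for comparison by their counts. Of 35 other replication genes, such as the origin recognition, primase and clamp loader subunits, 32 were lower and 0 were higher in untreated MuSK-null myoblasts, with a median of -0.65, where 31.3% of all genes were called. In untreated MuSK-null myotubes 8 were higher and 3 were lower, or 31.4%, which is below the 37.4% of all genes called there. Clspn, a mediator of the replication checkpoint, differed by -1.02 (SE 0.12, adjusted p = 1.95e-07) in myoblasts, and Lig1, the replicative DNA ligase, by -1.14 (SE 0.09, adjusted p = 2.96e-10) in myotubes. Of 36 other mitosis genes 29 were higher and 1 was lower in untreated MuSK-null myotubes (median 0.58), and 7 were higher and 6 were lower in untreated MuSK-null myoblasts (median 0.02). The called share was 83.3% in myotubes, where it was 37.4% of all genes, and 36.1% in myoblasts, where it was 31.3% of all genes. Aspm, a spindle pole protein, differed by 1.14 (SE 0.08, adjusted p = 7.82e-11) in myotubes, and Pttg1, securin, by 0.92 in myotubes and -0.94 in myoblasts. With BMP4 at most 3 of the 35 and 2 of the 36 were called in any of the 4 pairs, or at most 8.57% and 5.56%, where 8.42% to 11.3% of all genes were called.

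Regulators upstream of the listed genes were also read. Among 17 cyclin-dependent kinase inhibitors, pocket proteins and E2f factors, 12 were lower and 3 were higher in untreated MuSK-null myoblasts, and 4 were lower and 6 were higher in untreated MuSK-null myotubes. The called share was 88.2% in myoblasts, where it was 31.3% of all genes, and 58.8% in myotubes, where it was 37.4%. Cdkn2b, an inhibitor of Cdk4 and Cdk6, differed by -3.45 (SE 0.09, adjusted p = 1.35e-18) in myotubes and -2.88 (SE 0.09, adjusted p = 2.84e-17) in myoblasts. Its neighbour Cdkn2a differed by -2.68 (SE 0.13, adjusted p = 5.68e-14) in myotubes and -3.43 (SE 0.13, adjusted p = 5.85e-16) in myoblasts. Cdkn1c, another inhibitor, was higher by 1.55 (SE 0.10, adjusted p = 7.11e-12) in MuSK-null myotubes. With BMP4, E2f2, an activating E2f factor, changed by -0.96 in MuSK-null myotubes, -1.53 in wild-type myotubes, -0.37 in MuSK-null myoblasts and -1.48 in wild-type myoblasts, all of them called.

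Many cell cycle promoters are known to carry E2f, CCAAT or CHR elements, so the promoters of the listed genes were read, grouped by role and not by measured change. RefSeq promoters (build GRCm38.p6) were given for 44 of the 56 genes, and the 250 bases before the start were searched on both strands. For E2f sites the search took the letters TTCCCGC, besides the form with a changed centre, TTCGCGC, its further variant TTGGCGC, and finally the variant TTGCCGC. It took CCAAT for the box bound by the factor NF-Y. For the cell cycle homology region (CHR) it took TTTGAA, besides the variant form TTCGAA. Overlapping matches were each counted. An E2f match was present in 46.7% of 15 promoters of replication genes and 12.5% of 24 promoters of mitosis genes, against 7.89% of all 32851 promoters. A CHR match was present in 20% and 33.3% of these, against 17.1% of all promoters, and a CCAAT match in 73.3% and 83.3%, against 33.9%. Such matches describe letters and are not shown to be sites.

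The promoters of 4 genes are given as examples, with matches in capitals. They are not typical: of the listed genes' promoters, Mcm6 has the most E2f matches and Top2a the most CCAAT and CHR matches. Mcm6 is a helicase subunit that was lower in MuSK-null myoblasts (-0.84), Rrm2 rose with BMP4 in all pairs, and Ccnb2, a mitotic cyclin, and Top2a were higher in MuSK-null myotubes. The windows are chr1:128359706-128359955 (minus strand) for Mcm6, chr12:24708004-24708253 (plus strand) for Rrm2, chr9:70421555-70421804 (minus strand) for Ccnb2 and chr11:99024200-99024439 (minus strand) for Top2a. The Top2a sequence is 240 bases, since the last 10 of its 250 lie inside the gene model and are not printed.
Mcm6: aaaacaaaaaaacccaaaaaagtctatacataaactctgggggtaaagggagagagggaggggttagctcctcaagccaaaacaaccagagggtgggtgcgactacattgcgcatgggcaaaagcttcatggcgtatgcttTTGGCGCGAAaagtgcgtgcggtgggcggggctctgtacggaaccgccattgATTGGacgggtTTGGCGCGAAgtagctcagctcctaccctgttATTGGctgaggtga
Rrm2: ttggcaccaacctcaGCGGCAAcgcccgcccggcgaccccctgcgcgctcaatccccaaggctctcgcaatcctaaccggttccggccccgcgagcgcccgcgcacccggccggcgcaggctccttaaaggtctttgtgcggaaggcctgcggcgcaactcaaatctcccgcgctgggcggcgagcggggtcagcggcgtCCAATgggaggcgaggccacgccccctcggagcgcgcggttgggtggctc
Ccnb2: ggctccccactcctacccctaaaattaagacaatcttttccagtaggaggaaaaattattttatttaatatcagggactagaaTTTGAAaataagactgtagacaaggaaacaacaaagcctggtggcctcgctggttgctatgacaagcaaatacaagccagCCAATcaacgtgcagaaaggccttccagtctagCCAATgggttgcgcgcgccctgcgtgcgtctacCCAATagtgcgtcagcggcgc
Top2a: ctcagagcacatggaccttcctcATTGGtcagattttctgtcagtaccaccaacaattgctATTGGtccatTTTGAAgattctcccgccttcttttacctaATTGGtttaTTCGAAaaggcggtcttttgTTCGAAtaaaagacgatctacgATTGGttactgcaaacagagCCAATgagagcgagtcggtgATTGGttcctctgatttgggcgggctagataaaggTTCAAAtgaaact
Mcm6 holds 4 E2f matches, in overlapping pairs at 109 to 100 and at 46 to 37 bases before the start, and 2 CCAAT letters. Rrm2 holds 1 E2f match and 1 CCAAT. Ccnb2 holds 3 CCAAT letters and 1 CHR match, and Top2a holds 6 and 4. Neither Ccnb2 nor Top2a has an E2f match in this window.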

How the data were processed

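RNA of 24 samples was measured on Affymetrix mouse gene arrays, 3 arrays in each of 8 groups. The deposited values are log2 signals per probe set. The submitters' processing notes name Affymetrix Expression Console and Partek, with no versions. For background correction, probe summary and normalisation by the authors the sources used here give no method, and these steps set the spread of the log2 scale. Of 35556 probe sets, 21789 carry 1 gene symbol, 1621 several and 12146 none in the platform annotation, and 21698 of the first kind were found in RefSeq, with 0 symbols changed. The probe set with the highest mean was kept for each of 999 genes with several, which gave 19938 genes.

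limma 3.58.1 in R 4.3.3 fitted 8 group means (16 residual degrees of freedom) and 15 contrasts with empirical Bayes, after the procedure was tested on simulated data. P-values were adjusted by Benjamini-Hochberg over all genes. Precision is limited by having 3 arrays per group. The rule for naming took, with array values, the 2 genes per role with the widest range of group means and called genes that ran against the majority, and, with changes, the 3 largest rises and falls in each comparison. Not all genes it takes are printed with array values, and the rest are given by counts and ranges. Further genes outside this rule, among them Pcna, Tyms and Mki67, were named after their values were seen. The members, the other lists (replication, mitosis, inhibitors and E2f factors, and muscle, fibroblast, smooth muscle, endothelial and blood markers) and these rules were chosen with earlier results of these data known.

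Alternatives changed the samples in the model, the variance model, a filter on dim genes, normalisation, centring, the probe set, the threshold and the replicate block, and left out each array in turn. Those on the set of 4 arrays, and the block within the compared groups alone, were added after seeing the data. Replicate numbers from the labels were checked for pairing by the correlation of deviations from group means. They paired all samples at over 0.1 for BMP4 in MuSK-null myoblasts (0.12 to 0.46) and for the lines as untreated myoblasts (0.22 to 0.42), and not in the other 8 comparisons of 2 groups.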

Additional observations from a re-analysis of the deposited data

Results flagged for a closer look

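The values here differ between lines or stages by the test of the difference itself, in log2 units. In the change of untreated myotubes relative to untreated myoblasts, MuSK-null minus wild type was -2.21 for Ccnd1, -0.35 for Cdk6 and -0.33 for Rrm2. It was 1.64 for Cdk2, 1.40 for Ccne2, 1.39 for Cdc6, 1.31 for Mybl2 and 1.06 for Foxm1. It was 0.86 for Kif11, 0.74 for both Nek2 and Bub1, 0.73 for Mcm7 and 0.65 for Ccne1. It was 0.45 for Bub1b, 0.365 for Ccnd3 and 0.27 for Ccnb2.

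In the response of myotubes to BMP4, MuSK-null minus wild type was 0.55 for Ccnd1, 0.53 for Rrm2, 0.36 for Cdk6 and -0.37 for Cdc25b. In the response to BMP4, myotubes minus myoblasts was 0.76 for Rrm2, 0.71 for Cdk6 and 0.56 for Ccnd1 in MuSK-null cells. It was 0.66 for Cdc6 and 0.44 for Cdc25b in wild-type cells.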

How the results depend on the processing

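Of 334 calls of listed genes, 292 held without any 1 array and 42 were lost without at least 1. Setting aside the 1.5-fold threshold, which these counts do not include, 280 held under every alternative run. Among the 334, 2 changed sign, both of Top2a with its dim second probe set. Leaving out 1 array gave 4 to 8 called genes for BMP4 in MuSK-null myotubes, 4 to 7 in wild-type myotubes, 3 to 5 in MuSK-null myoblasts and 5 to 5 in wild-type myoblasts. It gave 39 to 41 between the lines in untreated myotubes, 30 to 32 in untreated myoblasts, 37 to 41 in treated myotubes and 29 to 31 in treated myoblasts. For myotubes against myoblasts it gave 55 in both lines, and for the difference of these changes 35 to 43. For the difference of BMP4 responses between lines it gave 2 to 3 in myotubes and 0 to 1 in myoblasts, and between stages 4 to 6 in MuSK-null and 2 to 2 in wild-type cells. Requiring also a change of at least 1.5-fold left 1 gene for BMP4 in MuSK-null myotubes, 1 in wild-type myotubes, 0 in MuSK-null myoblasts and 0 in wild-type myoblasts. It left 18 between the lines in untreated myotubes, 13 in untreated myoblasts, 21 in treated myotubes and 13 in treated myoblasts. It left 0 for the difference of BMP4 responses in myotubes, and 2 in MuSK-null and 1 in wild-type cells for that between stages. With the compared groups alone, BMP4 calls were 5 in MuSK-null myotubes and 4 in wild-type myotubes, and 2 for their difference. With a replicate block there, they were 3 in MuSK-null myotubes, 4 in wild-type myotubes, 3 in wild-type myoblasts, 2 for the difference in myotubes and 1 for that between stages in wild-type cells. A replicate block in the model of all arrays gave 4 genes for BMP4 in MuSK-null myoblasts and 33 between the lines as untreated myoblasts, the paired comparisons, and 9 for BMP4 in MuSK-null myotubes. With the set of 4 arrays as a block or left out, 1 gene was called for the difference of BMP4 responses in myoblasts. For Top2a, the second, dim probe set gave -0.049 (adjusted p = 0.870) between the lines in untreated myotubes. Beyond the fewer arrays or stricter threshold, the cause was not tested.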
